A study of Glycine max with 8 samples.

Results

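The 8 transcripts described here encode enzymes and a regulator of chlorophyll synthesis in soybean leaves. They are 2 glutamyl-tRNA reductases (HEMA; Glyma.02G218300-1 and Glyma.14G185700-1), 2 tetrapyrrole binding proteins (GUN4; Glyma.12G052500-1 and Glyma.11G127800-1), 3 protochlorophyllide oxidoreductases (POR; Glyma.12G222200-1, Glyma.12G150400-1 and Glyma.06G247100-1) and 1 chlorophyllide a oxygenase (CAO; Glyma.14G150600-1). They were matched by name among 77681 transcripts on the array, and all 8 were among the 55087 that were tested. They had been named because their signals were lower in the first drought than in watered leaves and lower again in the second drought. The falls into DR1 and into DR2 are therefore given below as descriptions, without a test.

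Seedlings of Glycine max cultivar Daepoong were grown in soil for 7 days, and leaf RNA was hybridised to single-colour arrays. After that growth, WT1 plants stayed watered while DR1 plants went through the first drought, in which the watering tray was withdrawn for 4 days, and both were then collected. WT2 was the DR1 plants given water again for 1 day, and DR2 the same plants after a second drought of 4 days. The sample labels give the first drought as 4 hours, whereas the treatment protocol and the methods of the study give 4 days. Each condition had 2 biological replicates, each a pool of primary leaves, so 8 arrays were available. No genetic change was involved, and all plants were of 1 cultivar. WT2 and DR2 leaves came from later time points than WT1 and DR1, and continuously watered plants of those later ages were not analysed here.

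Chlorophyll is made in the plastid from glutamate. Glutamyl-tRNA reductase opens the route to aminolevulinic acid and is its main point of control, after which a chain of shared enzymes builds the porphyrin ring. At the branch to chlorophyll, magnesium chelatase, aided by GUN4, inserts magnesium into the ring. POR then reduces protochlorophyllide to chlorophyllide in a step that needs light, and CAO converts chlorophyllide a to the b form. The route is kept under tight control in leaves because its free intermediates are harmful in the light, and its genes are known to be active in green tissue.

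Values are normalized array intensities on a linear scale, and changes are differences of mean log2 intensity. The WT1 and DR1 arrays shared 1 slide and the WT2 and DR2 arrays the other. DR1 against WT1 and DR2 against WT2 therefore lay within a slide. In WT2 against WT1 and DR2 against DR1, slide and condition cannot be told apart. The median spot signal ranged from 87 to 159.5 across arrays against a median background of 27 to 33, 55.2 to 65.2% of probes were well above background, and no spot was saturated. The leaf identity of the RNA was checked with 13 chlorophyll a/b-binding transcripts, all detected at WT1 and 10 of them at DR2. Their summed intensity was 1142720 and 1105220 at WT1, 245282 and 287904 at DR1, 971103 and 1021450 at WT2, and 9848 and 11705 at DR2. The DR2 sums include transcripts not detected there. A RuBisCO small-subunit transcript, also listed as a leaf marker, had an intensity of 1091 and 1042 at WT1 and 119 and 143 at DR1. Its intensity was 555 and 657 at WT2 and 70.2 and 53.1 at DR2. In bulk leaf RNA, fewer green cells and less of a transcript per cell cannot be told apart. The 2 dehydrin transcripts on the marker list, from a family known to be induced by water loss, had a summed intensity of 72.7 and 60.3 at WT1 and of 3209 and 2966 at DR1. At WT2 the sum was 478 in replicate 1 and 49.8 in replicate 2, and at DR2 it was 8941 and 7416. Of these 2 transcripts, 1 was detected at WT1 and 2 at DR2, so the WT1 sum includes a transcript not detected there. The leaf and dehydrin marker lists came from annotation that the study gave mostly for transcripts it had listed as changed on these samples. Their rises and falls are therefore not independent evidence.

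All 8 transcripts followed 1 course. They were bright in WT1, fell at DR1, regained most of their level after 1 day of water, and fell to their lowest level at DR2. Over the members, the level at DR1 was 5.90 to 21.0% of WT1, with a median of 10.5%. At WT2 it was 70.0 to 102% of WT1 (median 74.6%), and at DR2 it was 0.258 to 1.42% of WT1 (median 0.413%). In log2 units the median change was -3.26 from WT1 to DR1, -7.61 from WT2 to DR2 and -4.72 from DR1 to DR2. The median over all transcripts tested was 0.05, -0.002 and -0.07 in these comparisons.

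All 8 were over 4-fold lower in each of these 3 comparisons. The members had been selected on the first and the last of these, and DR2 against WT2 uses the same DR2 arrays, so the count only restates the selection. For other transcripts, a call means an over 4-fold change with an adjusted P below 0.05. By that rule 3.84% of all transcripts were called lower at DR1 against WT1, 15.1% at DR2 against WT2 and 8.39% at DR2 against DR1.

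**Figure D1:**
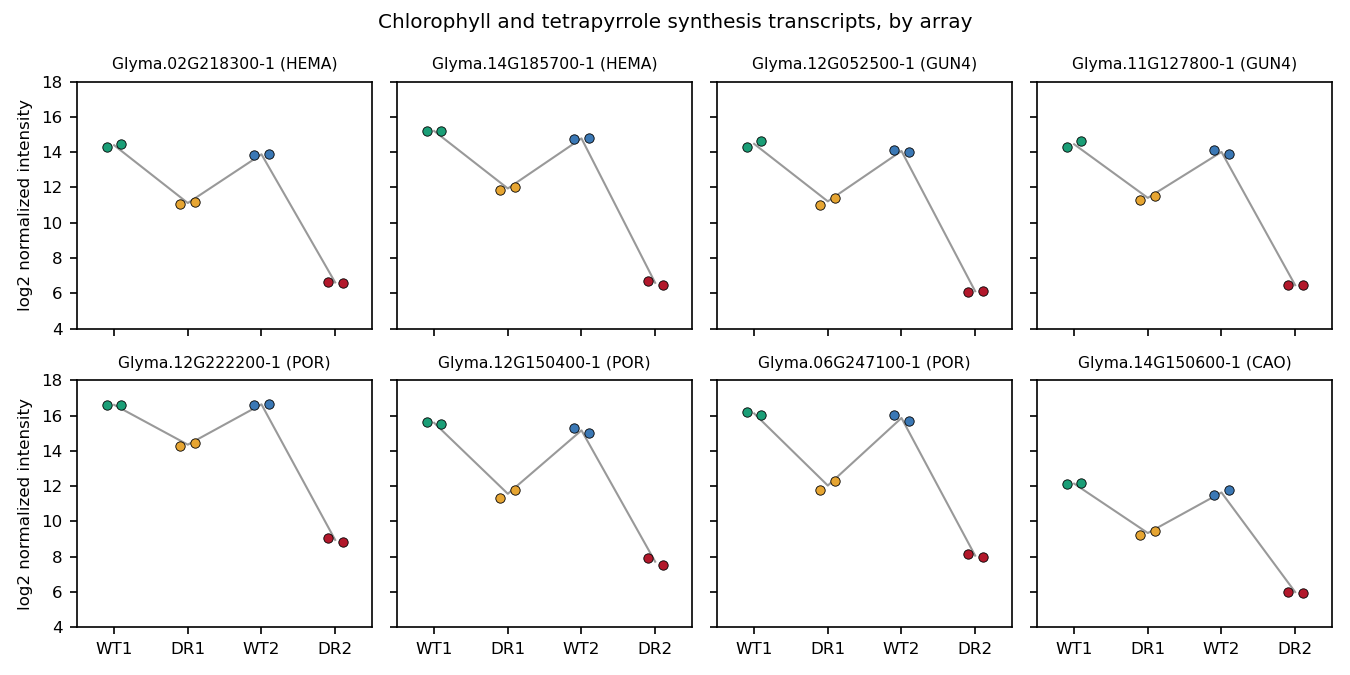
Log2 normalized intensity of the 8 transcripts on each array, with the conditions along the x axis, 1 point per array and a line through the condition means (n = 2). In every panel the DR1 points lie below the WT1 points, the WT2 means return to within 0.51 of the WT1 means, and the DR2 points, between 5.98 and 9.05, are the lowest.

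The HEMA transcripts encode the enzyme that commits glutamate to the pathway. Glyma.02G218300-1 had an intensity of 20375 and 22655 in the WT1 replicates, 2104 and 2348 in DR1, 14689 and 15406 in WT2, and 99.3 and 97.5 in DR2. Glyma.14G185700-1 had 37281 and 37930 in WT1, 3666 and 4224 in DR1, 27385 and 28831 in WT2, and 105 and 89.3 in DR2. For both, the replicates of a condition lay close together and no condition overlapped another. Non-overlap was common among all transcripts tested: 76.1% between DR1 and WT1, 49.7% between WT2 and WT1, and 80.8% between DR2 and DR1. The first drought lowered the 2 copies by nearly the same amount, to 10.3% and 10.5% of WT1 (log2 changes of -3.27 and -3.26, SE 0.20 and 0.21). In the second drought their changes differed, with log2 changes from WT2 of -7.26 (SE 0.20) for Glyma.02G218300-1 and -8.18 (SE 0.21) for Glyma.14G185700-1. Their levels met, as the mean log2 ratio of Glyma.14G185700-1 to Glyma.02G218300-1 was 0.90 in WT2 and -0.02 in DR2. The 3 probes of Glyma.02G218300-1 changed by -7.55, -6.23 and -7.98 from WT2 to DR2. The first of them was below the background criterion on both DR2 arrays. This span of 1.75 log2 units compares with 0.08 for the 2 probes of Glyma.14G185700-1.

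GUN4 binds the porphyrin substrate of magnesium chelatase and raises the activity of that enzyme. Glyma.12G052500-1 had an intensity of 20217 and 25410 in WT1, 2075 and 2713 in DR1, 17952 and 16373 in WT2, and 68.8 and 70.4 in DR2. Glyma.11G127800-1 had 19713 and 25320 in WT1, 2517 and 2937 in DR1, 17682 and 15418 in WT2, and 88.3 and 88.5 in DR2. Both copies therefore ran in parallel, with WT1 replicate 1 below replicate 2 and WT2 replicate 1 above replicate 2. They stood at 10.5% and 12.2% of WT1 in DR1 and at 0.406% and 0.536% of WT2 in DR2. Their log2 changes from WT2 to DR2 were -7.94 and -7.54, with standard errors of 0.23 each.

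POR catalyses the light-dependent reduction of protochlorophyllide, the last step before chlorophyllide. Glyma.12G222200-1 had an intensity of 99806 and 99425 in WT1, 19669 and 22179 in DR1, 99890 and 103381 in WT2, and 530 and 464 in DR2. Glyma.12G150400-1 had 50944 and 47501 in WT1, 2577 and 3576 in DR1, 40040 and 33498 in WT2, and 243 and 184 in DR2. Glyma.06G247100-1 had 74869 and 67544 in WT1, 3535 and 4974 in DR1, 66370 and 53412 in WT2, and 288 and 249 in DR2. In DR1 the 3 copies thus kept unequal shares of their WT1 level: 21.0% for Glyma.12G222200-1, 6.17% for Glyma.12G150400-1 and 5.90% for Glyma.06G247100-1. In DR2 they were closer together, at 0.498, 0.430 and 0.377% of WT1.

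The unequal response of the POR copies in DR1 was seen on each of the 2 DR1 arrays. The log2 ratio of Glyma.12G222200-1 to Glyma.12G150400-1 was 1.91 and 1.61 above its WT1 mean on the 2 DR1 arrays, 0.30 and 0.61 above on the WT2 arrays, and 0.10 and 0.32 above on the DR2 arrays. Against Glyma.06G247100-1 the ratio was raised by 1.99 and 1.67 in DR1, by 0.10 and 0.47 in WT2, and by 0.40 and 0.41 in DR2. The ratio of Glyma.06G247100-1 to Glyma.12G150400-1 stayed within 0.29 of its WT1 mean on every array. The 2 probes of Glyma.12G222200-1 changed by -2.39 and -2.12 in DR1, and the 5 probes of the other copies by -4.36 to -3.68, so that the ranges did not overlap. Glyma.12G222200-1 was also the member nearest to the 4-fold limit in DR1, at -2.25. How far the probes of the copies can bind each other's RNA was not tested.

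**Figure D2:**
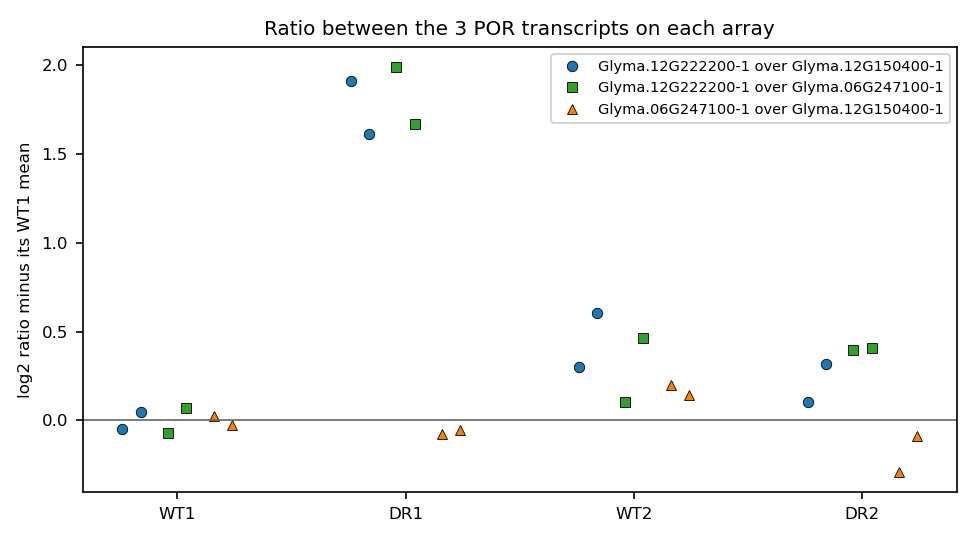
Log2 ratio between POR transcripts on each array, set to 0 at its WT1 mean, for 3 pairs of copies (colour and shape; 2 arrays per condition along the x axis). Both ratios with Glyma.12G222200-1 as numerator rise to between 1.61 and 1.99 in DR1, whereas the ratio of Glyma.06G247100-1 to Glyma.12G150400-1 stays within 0.29 of 0.

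CAO forms the b type of the pigment, which is carried mainly by the light-harvesting antenna. Glyma.14G150600-1 had an intensity of 4423 and 4621 in WT1, 592 and 715 in DR1, 2914 and 3505 in WT2, and 65.3 and 63.0 in DR2. It fell to 14.4% of WT1 in DR1 and to 2.01% of WT2 in DR2, which were log2 changes of -2.80 and -5.64 (SE 0.22 each). Its change from DR1 to DR2, -3.34, was the smallest among the members. Of its 5 probes, 1 was below the background criterion on both DR2 arrays and 1 on a single DR2 array.

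The array held 3 further entries of these loci. Glyma.14G150600-2, a second transcript model of CAO with 1 probe, had an intensity of 72.9 and 54.0 in WT1 and 56.3 and 70.2 in WT2. It was not well above background in DR1 or DR2, so it was at least 2.82-fold lower in DR1 than in WT1 and at least 2.51-fold lower in DR2 than in WT2. These bounds set the mean of the bright condition against the lowest signal among probes well above background on each array, or the probe's own signal where that was higher. Glyma.14G150600-3 had 184 and 153 in WT1, 43.7 and 49.3 in DR1, 104 and 133 in WT2, and 22.4 and 12.4 in DR2, where 1 of the 2 arrays was above background. A second entry of the POR locus Glyma.12G222200, with the suffix UE, had 2405 and 2437 in WT1, 459 and 499 in DR1, 1947 and 2194 in WT2, and 17.8 and 151 in DR2. Its DR1 change, -2.34, was close to the -2.25 of the main entry. Its DR2 replicates disagreed, and only 1 of them was above background.

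The 8 members were measured by 21 probes, and all 21 fell over 4-fold in each drought. The probe changes ran from -4.36 to -2.12 in DR1 against WT1 and from -8.22 to -5.34 in DR2 against WT2. The raw signals of these probes, before any correction, were 3131 to 150609 in WT1, 650 to 30757 in DR1, 3009 to 152756 in WT2 and 59.5 to 633 in DR2. The local background of the DR2 spots was 24.5 to 33. In DR2, 18 of the 21 probes were still well above background on both arrays, and the other 3 are those named above. Detection does not fix the size of the fall, which depended on the processing. Over the settings run, DR2 against WT2 ranged from -6.165 to -4.809 for CAO. For Glyma.02G218300-1 it ranged from -7.981 to -6.543.

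The members also differed in how the total fall was divided. From WT1 to DR2, the first drought accounted for 29.5 to 51.1% of the log2 distance. Glyma.12G222200-1 was at the lower end, and Glyma.12G150400-1 (51.1%) and Glyma.06G247100-1 (50.7%) at the upper end. The response to the second drought was 1.85 to 3.41 times the response to the first in log2 units, with a median of 2.33. The difference of the 2 responses was -2.84 for CAO and -5.43 for Glyma.12G222200-1, with the other 6 between these values and a median over the 8 of -4.24. The median of all transcripts tested was -0.05.

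Replicates of the members were closer than is typical in WT1, WT2 and DR2, but not in DR1. Their median log2 difference was 0.125 in WT1, 0.165 in WT2 and 0.123 in DR2, against 0.245, 0.345 and 0.355 for all transcripts. In DR1 it was 0.248 against 0.132. The largest log2 difference between replicates of a member was 0.36 in WT1, 0.49 in DR1, 0.31 in WT2 and 0.41 in DR2. In DR1, replicate 1 was below replicate 2 for all 8 members, by 0.16 to 0.49.

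Whether the transcripts had returned to their starting level after re-watering was the question that the selection had not answered. At WT2, 7 of 8 members were below WT1, as were 30352 of all 55087 transcripts tested. No member passed an adjusted P of 0.05 in limma (8 arrays, 55087 transcripts). The median log2 change was -0.42, against -0.06 for all transcripts tested. Glyma.02G218300-1 changed by -0.51 (SE 0.20, 95% interval -0.98 to -0.05; adjusted p = 0.22 in limma) and CAO by -0.50 (SE 0.22, interval -0.99 to -0.006; adjusted p = 0.26). These were the 2 members with an unadjusted p below 0.05, a threshold at which 8.65% of all transcripts were lower and 10.3% higher. The adjusted p of the other 6 was 0.32 to 0.96. At an adjusted P below 0.05 without a fold limit, 0.746% of all transcripts were lower and 2.75% higher, and with the 4-fold limit 0.0472% were lower and 0.396% higher.

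For the 7 members that were lower, both WT2 arrays lay below both WT1 arrays. For Glyma.12G222200-1 both WT2 arrays lay above them by a small margin, with a change of 0.03 (SE 0.20, interval -0.44 to 0.50). Of all transcripts tested, 49.7% did not overlap between these conditions. Of the 21 member probes, 20 were lower, by up to 0.62, but probes of the same transcript are not independent. The 95% intervals of 6 members include 0, and that of Glyma.12G150400-1 reaches down to -1.01. Measured from DR1, the members had regained 82.1 to 101% of the log2 fall. WT1 arrays enter both this comparison and the one used for selection.

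**Figure D3:**
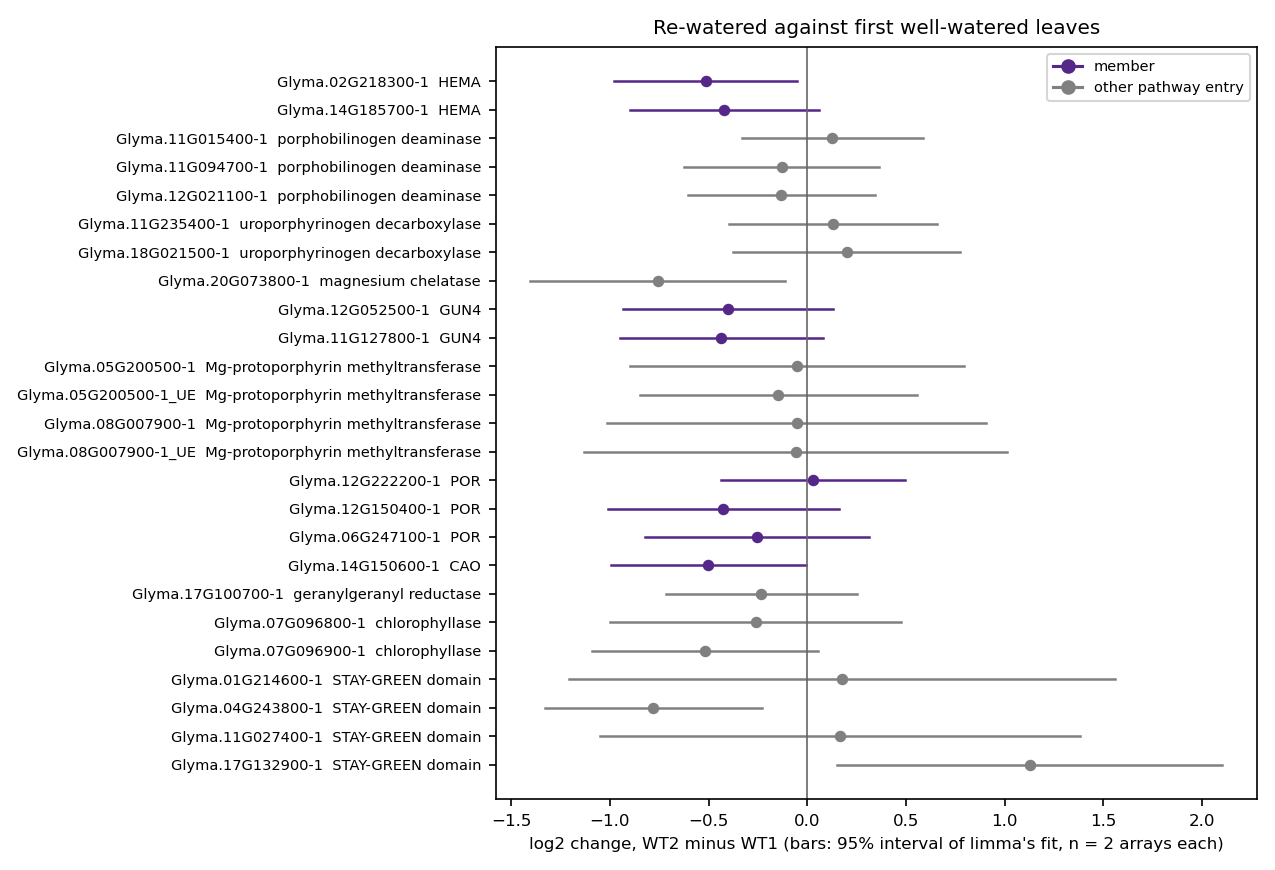
Log2 change from WT1 to WT2 for the 8 members (purple) and 17 other entries of the pathway (grey), with points for limma's estimate and bars for its 95% interval (n = 2 arrays per condition). Of the 8 member points, 7 lie left of 0, between -0.51 and -0.26, and the bars of Glyma.02G218300-1 and CAO end below 0.

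Other steps of the pathway were followed through 17 further array entries from 15 loci, found by their domain names or nearest Arabidopsis genes. Only 3755 of the 77681 entries on the array had a domain name or description in the annotation used. Steps and copies without a named entry are not covered. These names came from annotation that the study gave mostly for transcripts it had listed as changed on these same samples. The counts below are therefore not independent evidence of a direction. Of the 17 entries, 13 were called lower and 2 higher in DR1 against WT1, with 3.6% of all transcripts called higher there. In DR2 against WT2, 14 were lower and 2 higher, where 13% of all transcripts were called higher. At WT2 against WT1 none was called in either direction, with 2 lower and 1 higher at an unadjusted p below 0.05 in limma, against 8.65% and 10.3% of all transcripts, and a median change of -0.06.

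The listed entries of the early shared steps fell in both droughts. These 5 entries had a median change of -2.60 in DR1 against WT1 and of -4.49 in DR2 against WT2. The members, selected for their falls, had -3.26 and -7.61, so no gap between the lists can be read from these medians. Porphobilinogen deaminase joins porphobilinogen units into the open chain of the ring. Its 3 transcripts changed by -3.61 (Glyma.12G021100-1), -3.35 (Glyma.11G094700-1) and -2.21 (Glyma.11G015400-1) in DR1, with SE of 0.20 to 0.22 and adjusted p of 3.8e-05 to 2e-04 in limma. Glyma.12G021100-1 had an intensity of 27223 and 27527 in WT1, 2143 and 2362 in DR1, 24378 and 25624 in WT2, and 563 and 667 in DR2. Uroporphyrinogen decarboxylase, which trims the side chains of the ring, changed by -2.60 (Glyma.11G235400-1) and -2.32 (Glyma.18G021500-1).

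From DR1 to DR2 these 5 early entries changed by -1.97 to -1.12, and 0 of 5 reached the 4-fold limit, although all 5 were lower at an adjusted P below 0.05 in limma, as were 28.2% of all transcripts. The entry just outside that limit was Glyma.18G021500-1, at -1.97, which passed it in 3 of the alternatives, by up to -2.27. Glyma.11G235400-1 passed it in 1, at -2.17. Among the members CAO, at -3.34, was nearest to the limit, but the members had been selected to lie inside it, so that no gap between the lists can be read from these values. At WT2 the 5 early entries had a median change of 0.13 from WT1, against -0.42 for the members. That difference between the lists was not tested. By the call rule, the response to the second drought differed from that to the first for 9 of the 17 entries (all lower, 0 higher) against 10.3% of all transcripts lower and 7.62% higher. The 9 include UE entries of loci that are also counted by their main entry. They also include Glyma.17G132900-1, not well above background in DR1 or DR2, and Glyma.07G096900-1, not well above background in DR2. Among these 9 was 1 early entry, Glyma.18G021500-1, with a difference of -2.17, which was -1.88 and short of the limit without DR2 replicate 1. Glyma.11G235400-1, at -1.88, passed the limit in 3 of the alternatives, at -2.29 to -2.01.

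The steps from magnesium insertion onward had 6 listed entries from 4 loci, since some loci had a second entry with the suffix UE. Of the 6, 5 were called lower in DR1 against WT1, as were 3.84% of all transcripts. All 6 were called lower in DR2 against WT2, as were 15.1% of all transcripts. The magnesium protoporphyrin methyltransferase Glyma.08G007900-1, which acts directly after the chelatase, had an intensity of 36734 and 36441 in WT1, 4279 and 4595 in DR1, 34444 and 36070 in WT2, and 971 and 338 in DR2. It changed by -3.04 (SE 0.42) in DR1 and -5.94 (SE 0.42) in DR2 against WT2, with adjusted p of 0.0011 and 6.6e-06 in limma. The copy Glyma.05G200500-1 changed by -2.68 and -6.20. Geranylgeranyl reductase, which makes the phytyl tail of chlorophyll (Glyma.17G100700-1), changed by -2.05 (SE 0.21) in DR1 and -5.88 (SE 0.21) in DR2 against WT2. Its DR1 change was -1.95, short of the 4-fold limit, without WT1 replicate 2 or without DR1 replicate 1. From DR1 to DR2, 5 of the 6 entries of this branch were called lower, with a median change of -3.26, as were 8.39% of all transcripts.

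The 1 listed magnesium chelatase entry, Glyma.20G073800-1, is annotated with Arabidopsis GUN5, the large subunit to which GUN4 binds. It was dim, with an intensity of 145 and 220 in WT1, 66.4 and 87.7 in DR1, 121 and 92.4 in WT2, and not well above background in DR2, at least 4.22-fold below WT2. Its change in DR1 was -1.23 (SE 0.28, adjusted p = 0.012 in limma), under the 4-fold limit. When only probes well above background in both WT1 arrays were averaged, a choice made after the data were seen, the change was -2.72 and passed the rule.

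**Figure D4:**
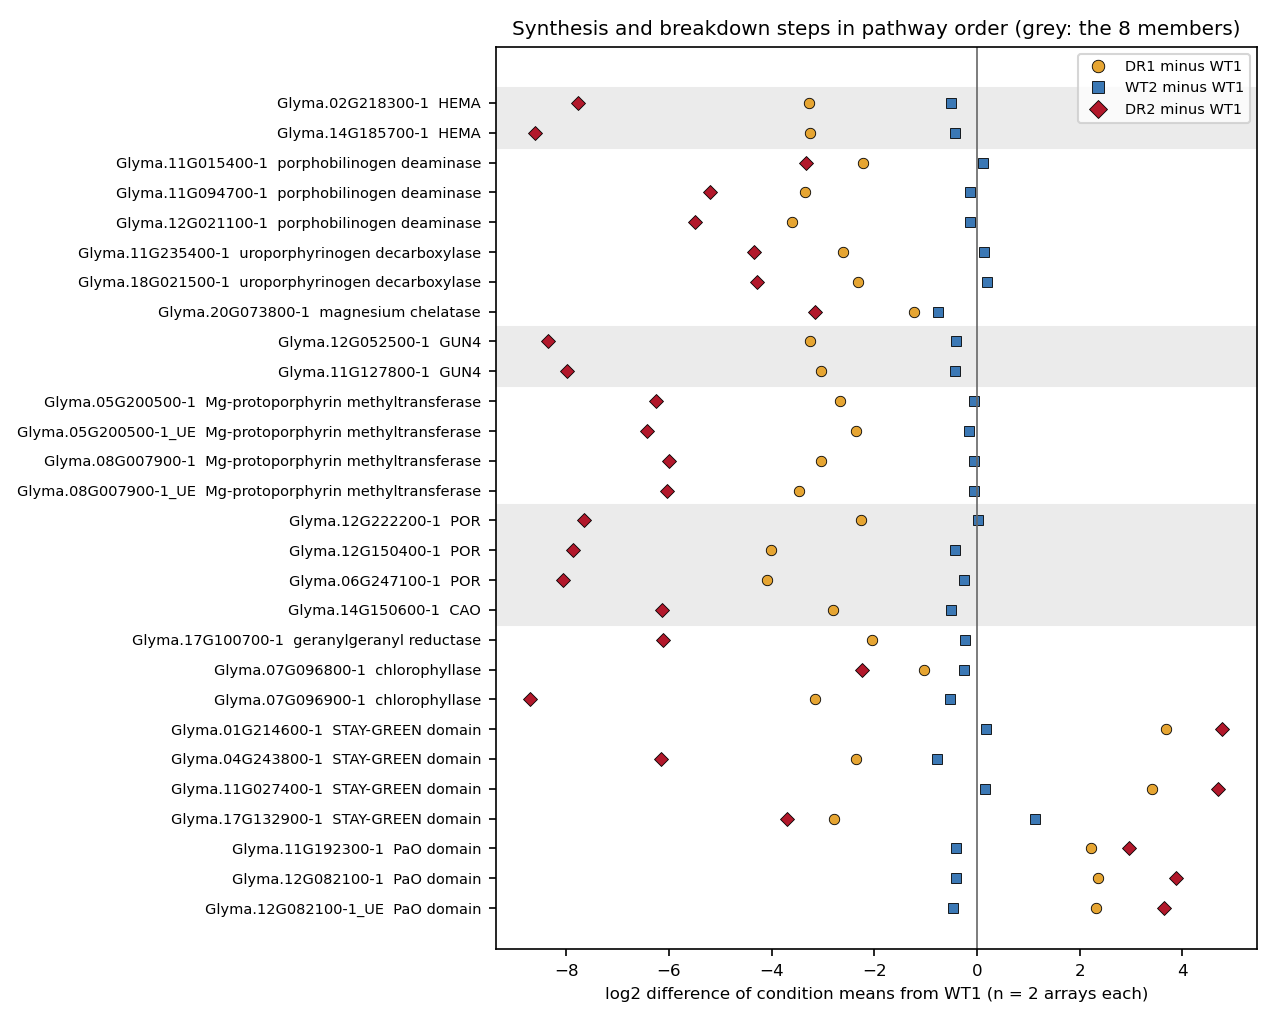
Difference of the mean log2 intensity of DR1 (circles), WT2 (squares) and DR2 (diamonds) from WT1, for the members (grey bands) and other entries of chlorophyll synthesis and breakdown in pathway order (n = 2 arrays per condition). The DR2 values of the members lie between -8.60 and -6.14, and those of the 5 early porphyrin entries lie between -5.48 and -3.34. The members were selected on the falls that make up this difference, so no gap between the lists can be read from it. DR2 values of Glyma.20G073800-1, Glyma.07G096800-1, Glyma.07G096900-1 and Glyma.17G132900-1 were not well above background.

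Breakdown genes moved in both directions. STAY-GREEN proteins remove magnesium from chlorophyll at the start of its breakdown. Glyma.01G214600-1, a transcript with this domain, had an intensity of 2210 and 2042 in WT1, 27449 and 27000 in DR1, 5428 and 1063 in WT2, and 57909 and 58895 in DR2. It rose by 3.68 (SE 0.61, adjusted p = 0.0025 in limma) in DR1 and by 4.60 (SE 0.61, adjusted p = 2e-04) in DR2 against WT2 on the log2 scale. Glyma.11G027400-1 rose by 3.40 and 4.53 in the same comparisons. Both drought conditions lay above both watered conditions on every array for these 2 transcripts, the reverse of the 8 members. Between DR1 and WT1 alone, 76.1% of all transcripts tested did not overlap, in either direction.

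The other STAY-GREEN domain entries fell. Glyma.04G243800-1 had 10007 and 8736 in WT1, 1798 and 1841 in DR1, 4855 and 6103 in WT2, and 152 and 113 in DR2. Its log2 change was -2.36 in DR1 and -5.38 in DR2 against WT2, with SE of 0.24. Glyma.17G132900-1 was not well above background in either drought, at least 5.56-fold lower than WT1 in DR1 and at least 10.9-fold lower than WT2 in DR2.

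Chlorophyllase removes the phytyl tail. Glyma.07G096900-1 had an intensity of 8465 and 6545 in WT1, 728 and 973 in DR1, 4649 and 5825 in WT2, and was not well above background in DR2, at least 208-fold lower than WT2. Glyma.07G096800-1 was dim, at 57.7 and 77.0 in WT1 and 30.7 and 35.1 in DR1. Its change in DR1, -1.02, was under the 4-fold limit, and was -2.64 with only the probes well above background in WT1.

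A further 3 entries from 2 loci carry the domain of pheophorbide a oxygenase (PaO), which opens the ring during breakdown. They were added after the data were seen. Glyma.12G082100-1 had 2500 and 3356 in WT1, 14472 and 15067 in DR1, 4109 and 1165 in WT2, and 39613 and 45487 in DR2. The 3 entries rose by 2.23 to 2.35 in DR1, with adjusted p of 0.008 to 0.0093 in limma, and by 3.38 to 4.28 in DR2 against WT2. Without WT1 replicate 1, the DR1 calls of all 3 were lost. Over all alternatives, the DR1 call was lost in 2 for Glyma.12G082100-1_UE. For the PaO entry Glyma.11G192300-1 it was lost in 3, and its change was as low as 1.98, under the 4-fold limit.

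The WT2 replicates disagreed for the breakdown transcripts that rose, and not for the members. Replicate 1 was 5.11-fold above replicate 2 for Glyma.01G214600-1, 3.91-fold for Glyma.11G027400-1, and 3.16- to 3.59-fold for the PaO entries. Replicate 1 was also the one in which the dehydrin sum was 478 against 49.8. The disagreement was not limited to transcripts that rose. The STAY-GREEN entry Glyma.17G132900-1, which fell, was 2.33-fold higher in WT2 replicate 2. For the 8 members the log2 difference between the WT2 replicates was -0.27 to 0.31, with replicate 1 higher in 4 and lower in 4.

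**Figure D5:**
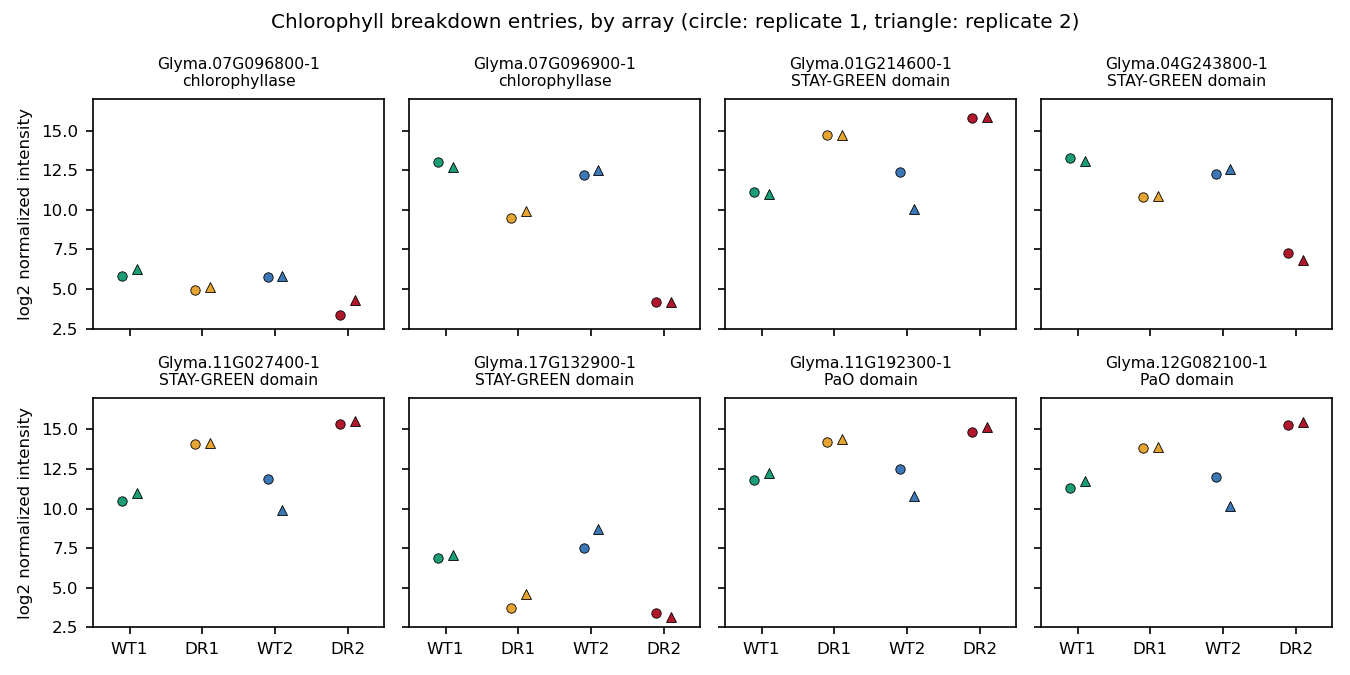
Log2 normalized intensity of 8 breakdown entries on each array, with the conditions along the x axis and circles and triangles for replicates 1 and 2. Of the 4 STAY-GREEN entries, 2 rise in both droughts, with the WT2 replicates apart by 2.35 and 1.97, and 2 fall. The points of both chlorophyllases in DR2 and of Glyma.17G132900-1 in DR1 and DR2 were not well above background.

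Outside the pathway, the transcripts closest to the members in their course over the 8 arrays were found by the root mean square difference from the median profile of the members, each transcript set to its own WT1 mean. The 5 closest, 1 per locus, were a chlorophyll a/b-binding protein (Glyma.16G165800-1; difference 0.20 log2 units), a carbonic anhydrase (Glyma.05G007100-2; 0.22), a cyclophilin-type peptidyl-prolyl isomerase (Glyma.05G014300-1; 0.25), a carboxyesterase (Glyma.17G243700-1; 0.26) and a homeobox protein whose nearest Arabidopsis gene is ATHB6 (Glyma.18G014900-1; 0.29). The chlorophyll a/b-binding transcript changed from WT1 by -3.15 in DR1, -0.26 in WT2 and -7.59 in DR2. The members themselves lay 0.13 to 0.93 from their own median profile. Of the 55079 other transcripts compared, 46 lay closer than 0.5, and 208 lay closer than the farthest member.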

How the data were processed

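Leaf RNA of WT1, DR1, WT2 and DR2 (2 replicates each) was measured on 8 single-colour Agilent arrays. Groups followed the sample titles. Per the file headers, the deposited intensities were raw spot and local background medians from Feature Extraction 11.5.1.1, with a background-subtracted processed signal. The authors also deposited intensities for 60386 transcripts, corrected and normalized with limma at settings not given in the sources used here, which served as an alternative.

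Spot medians were corrected by normexp (offset 0), quantile normalized and put on the log2 scale in limma 3.58.1 (R 4.3.3). Control and outlier spots were left out, and probes were averaged per transcript. A transcript was kept where at least 1 of its probes passed the background flag in both replicates of any condition. Of 77681 transcripts, 55087 were fitted with 4 condition means and Benjamini-Hochberg adjustment. A call needed an over 4-fold change and an adjusted P below 0.05. The fit was tested on simulated data. P-values and SE rest on the spread between replicates pooled over the 4 conditions (2 arrays each) and moderated across transcripts. They do not measure the spread of the 2 compared conditions alone. Replicates that disagree in 1 condition therefore widen every comparison of that transcript. The number of arrays limits the precision of the P-values.

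Members, lists and tests were chosen with earlier results of these data known. Genes named were the members, other entries of their loci, the brightest entry of each pathway step with those that rose, and the 5 nearest in course. Some further entries of those steps were named after their values were seen. Deviations of same-numbered samples correlated at 0.30 between WT1 and DR1 and at -0.31 between WT1 and WT2, with no common sign. The fit had no replicate block, and an effect shared by WT1 and DR1 is not excluded. Domain names and Arabidopsis matches came from the annotation in the study's supplement. Seed, root and nodule markers, sequences and promoters were not analysed here.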

Additional observations from a re-analysis of the deposited data

Results flagged for a closer look

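Members are left out here, since the selection fixed how their responses to the 2 droughts compare. Of the other entries of the pathway, 9 from 7 loci differed between the second and the first drought by limma's test of the difference of responses, all with a more negative fitted response in the second (over 4-fold, adjusted P below 0.05). The differences, in log2 units, were -5.04 for the chlorophyllase Glyma.07G096900-1 (adjusted p = 7.3e-05 in limma) and -3.83 for geranylgeranyl reductase Glyma.17G100700-1 (adjusted p = 0.00011). The magnesium protoporphyrin methyltransferase entries differed by -3.93 (Glyma.05G200500-1_UE), -3.52 (Glyma.05G200500-1), -2.90 (Glyma.08G007900-1) and -2.51 (Glyma.08G007900-1_UE). STAY-GREEN domain entries differed by -3.02 (Glyma.04G243800-1) and -2.03 (Glyma.17G132900-1), and the uroporphyrinogen decarboxylase Glyma.18G021500-1 by -2.17. Glyma.07G096900-1 was not well above background in DR2, so its fitted difference is no measure of size. Glyma.17G132900-1 was not well above background in DR1 or in DR2, so its value shows no larger fall in the second drought.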

How the results depend on the processing

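All 8 members stayed over 4-fold lower at DR1, DR2 against WT2 and DR2 against DR1 under every alternative run, which the selection on these arrays makes likely and which is no sign of stability. Under the same alternatives 0 of 8 passed an adjusted P of 0.05 at WT2 against WT1, where their median log2 change was -0.48 to -0.34. The size of the DR2 change differed between alternatives. The median at DR2 against WT2 was -7.47 with the authors' table, -8.05 with processed signals scaled to the 75th percentile (2 choices changed together), -7.13 with an offset of 50 and -7.75 with 75th percentile scaling alone, against -7.61. At DR2 against DR1 it was -5.17 with scaled processed signals, -4.07 with the offset of 50 and -4.97 with the median over probes, against -4.72, and the difference of responses was -4.75, -3.67 and -4.45 in that order, against -4.24. The cause was not tested. With 75th percentile scaling the median over all transcripts was -0.11 in place of 0.05 at DR1 against WT1 and 0.12 in place of -0.07 at DR2 against DR1. Calls over all transcripts as lower at DR1 numbered 1285 with the offset of 50 and 3514 with scaled processed signals, against 2114, and at DR2 against DR1 2621 with the offset of 50, against 4620.

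Leaving out an array gave 0 to 2 entries of the pathway list with a higher response in the second drought. The 2 were the STAY-GREEN entries Glyma.01G214600-1 and Glyma.11G027400-1, without WT2 replicate 1. The difference of Glyma.17G132900-1 lost its call in 5 of the 8 fits with an array left out, and that of Glyma.08G007900-1_UE in 4. That of Glyma.18G021500-1 was -1.88 without DR2 replicate 1. The check of shared replicate numbers gave correlations of -0.31 to 0.30 between conditions. With the replicate number as a block, the members' medians were -3.26 at DR1 against WT1 and -0.42 at WT2 against WT1. They were -7.61 at DR2 against WT2 and -4.72 at DR2 against DR1. In that order, 8, 0, 8 and 8 members were over 4-fold lower.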
